A study of Mus musculus with 36 samples.

Results

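The growth hormone and insulin-like growth factor (IGF) axis was followed through 10 genes, which were named by symbol and matched to 10 of the 78239 Ensembl genes in the deposited count files. They are the receptor gene Ghr, the signal transducer Stat5b, the feedback inhibitors Socs2 and Cish, the hormone Igf1, its circulating carriers Igfals and Igfbp3, the further binding proteins Igfbp1 and Igfbp2, and the receptor gene Igf1r. Polyadenylated RNA was sequenced from heart, kidney and liver of wild type (WT) male C57BL/6NCrl mice, bought at 6 weeks of age, held with free access to standard chow and anaesthetised with ketamine and xylazine for tissue collection at 8, 10 or 12 weeks. Each of the 9 tissue-by-age groups held 4 libraries, 36 in all, with 21031599 to 33637390 counted read pairs per library. The study's methods call the libraries of a group biological replicates, the labels do not name the animals, and p-values measure the spread between these libraries.

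Growth hormone is released by the pituitary in pulses, which in male rodents are separated by long intervals of low secretion. It binds the growth hormone receptor, the kinase JAK2 then phosphorylates STAT5b, and STAT5b carries the signal to the nucleus, where it induces Igf1 in hepatocytes together with Igfals, Socs2 and Cish. Circulating IGF-1 travels mostly in a complex with IGFBP3 and the acid-labile subunit, the product of Igfals, and it acts through the IGF-1 receptor on target tissues.

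Levels are given as CPM, the read pairs on a gene per 1000000 counted pairs of the library after edgeR's TMM scaling over all 36 libraries. In these whole tissues, fewer cells of a type and less RNA per cell cannot be told apart. The tissues carried the markers of their labels, with summed hepatocyte markers at 102288 to 162753 CPM in liver, 2072 to 2886 CPM in kidney and at most 26.3 CPM in heart, cardiomyocyte markers at 47629 to 63785 CPM in heart and at most 3.64 CPM elsewhere, and kidney markers at 20371 to 25551 CPM in kidney and at most 6.88 CPM elsewhere.

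The axis was divided between the organs. Liver held the hormone and most of its carriers, kidney held the highest Igf1r and Igfbp3 levels, and heart held the highest mean levels of the feedback inhibitors. In edgeR's fit of all 36 libraries, 8 of 10 members differed between liver and kidney by an adjusted p under 0.05 and more than 2-fold, where 47.8% of 19716 genes did. Between liver and heart 6 members did, against 55.3% of genes, and between kidney and heart 9 did, against 52.6% of genes. A share of genes this large differed between these organs that the number of members called says little, and the size and direction of each difference are given below. When libraries were scaled by their total counts alone, in place of TMM, the median log2 difference of all genes shifted by -0.78 between liver and kidney, by -0.22 between liver and heart and by 0.52 between kidney and heart. Relative to other genes, each direction below is therefore that of the TMM scale.

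**Figure D1:**
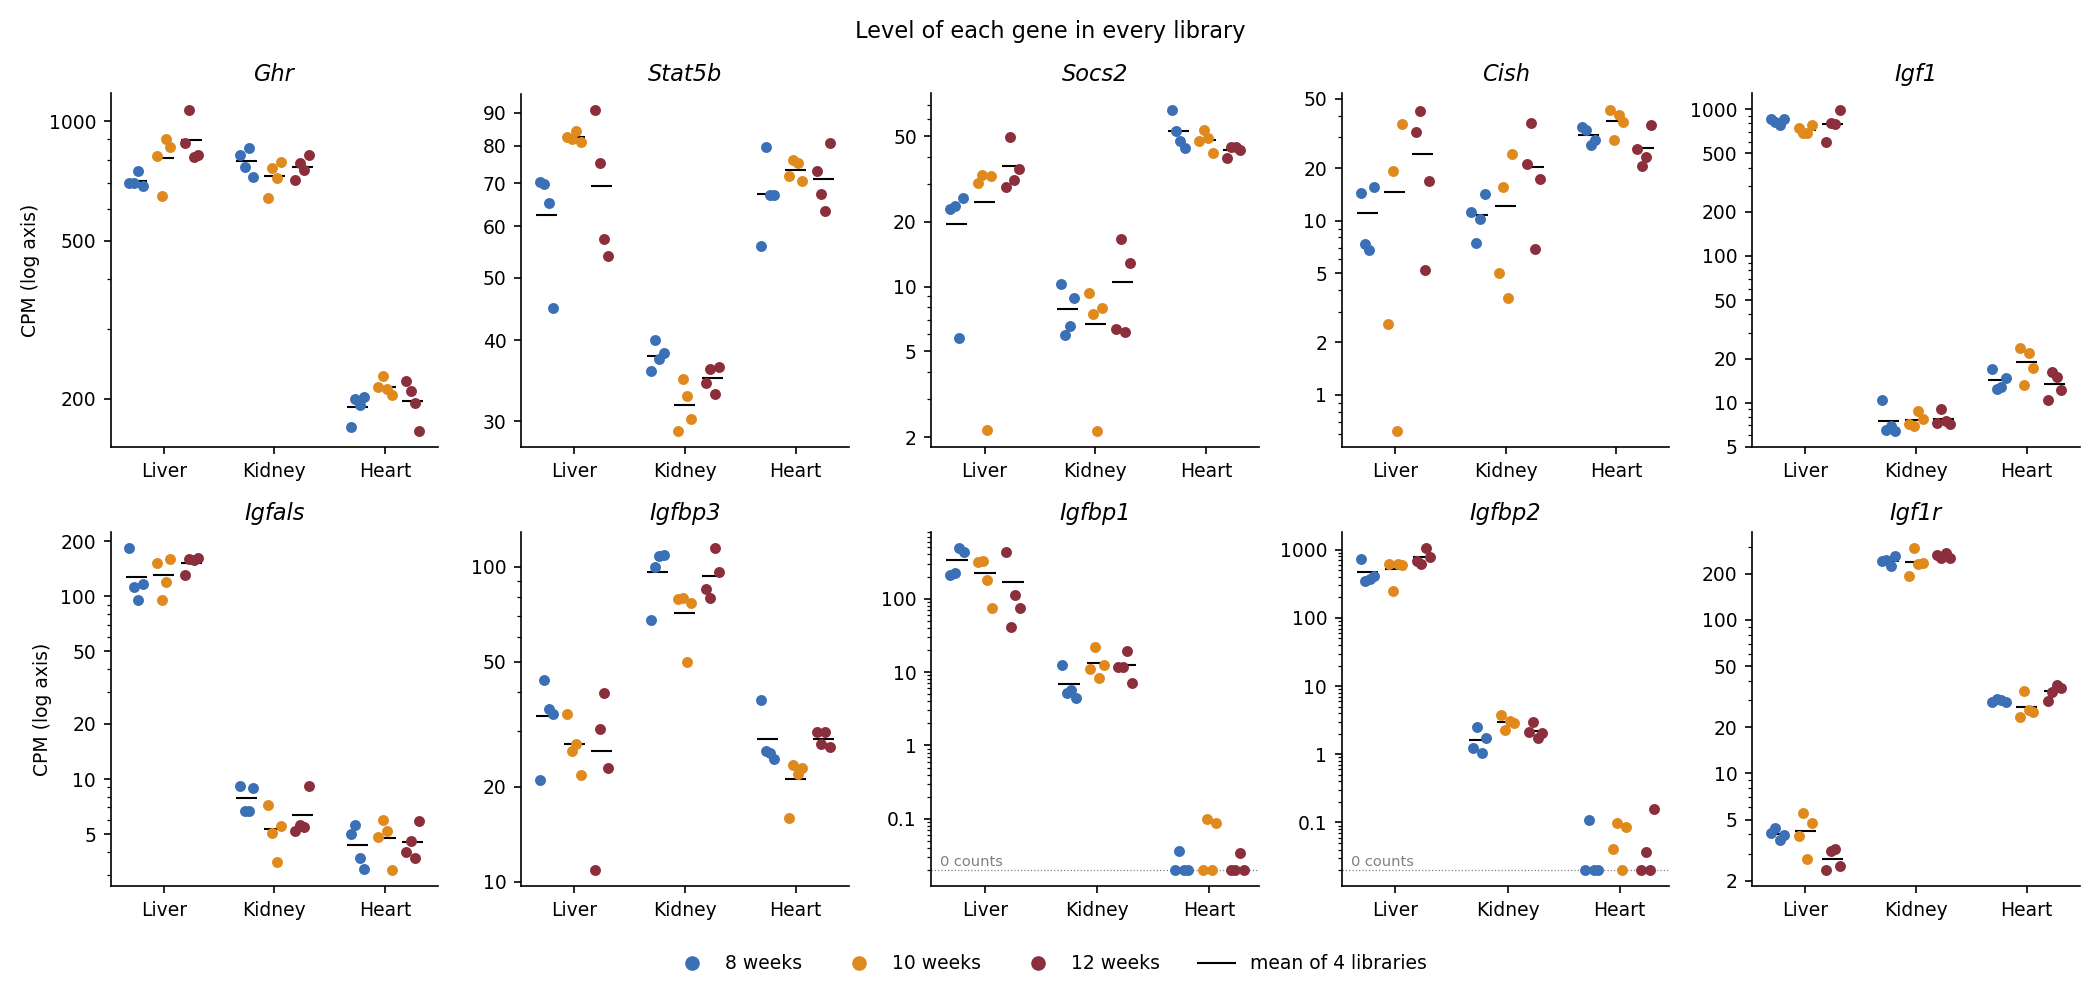
CPM on a log axis for each gene in all 36 libraries, as 1 point per library coloured by age, with a bar for the mean of the 4 libraries of a group. Igf1, Igfals, Igfbp1 and Igfbp2 are highest in liver and Igf1r in kidney, and the liver and kidney points of Cish and Socs2 spread far more widely than those in heart. Libraries with 0 counts of Igfbp1 or Igfbp2 sit on the dotted line.

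Ghr (ENSMUSG00000055737, chr15:3347235-3613024, minus strand, GRCm39 as for all members) encodes the receptor that takes up the growth hormone signal at the cell surface. In liver the libraries held 698, 697, 747 and 685 CPM at 8 weeks, 818, 648, 903 and 861 CPM at 10 weeks, and 881, 1069, 815 and 820 CPM at 12 weeks. The libraries of 12 weeks were all above those of 8 weeks, and a single library of 10 weeks lay below both. The means were 707 ± 27.4 CPM (SD, n = 4) at 8 weeks and 896 ± 119 CPM (SD, n = 4) at 12 weeks, and the log2 difference of 0.33 ± 0.11 (SE) did not pass the test (adjusted p = 0.207). Kidney was close to liver, with 642 to 856 CPM in its 12 libraries and a log2 difference (liver minus kidney) of 0.07 ± 0.06 (SE, adjusted p = 0.273). With total counts alone this difference was -0.72 (adjusted p = 2.82e-13), so the closeness depends on the scaling. Heart held 166 to 228 CPM, below every liver and kidney library, and liver exceeded it 3.98-fold (adjusted p = 6.58e-26).

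Stat5b (ENSMUSG00000020919, chr11:100671556-100741589, minus strand), the transducer that the receptor activates, was more even. Liver and heart did not differ by the test, with a log2 difference (liver minus heart) of 0.01 ± 0.07 (SE, adjusted p = 0.935). Their means over 12 libraries were 71.5 and 70.6 CPM. With total counts alone the difference was -0.25 (adjusted p = 0.00338). Kidney held 34.9 CPM, and liver exceeded it 2.04-fold (adjusted p = 5.07e-15). Within liver the 10-week libraries were tightly grouped at 82.5, 82.0, 84.4 and 81.2 CPM. The libraries of 8 weeks held 70.3, 69.8, 65.3 and 45.0 CPM and those of 12 weeks 91.0, 75.2, 57.4 and 53.9 CPM. All 10-week libraries were above all 8-week libraries, and the 12-week libraries straddled both. The difference between 10 and 8 weeks was 0.39 ± 0.17 on the log2 scale (SE, adjusted p = 0.318).

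Cish (ENSMUSG00000032578, chr9:107173225-107179983, plus strand) and Socs2 (ENSMUSG00000020027, chr10:95219523-95253929, minus strand) encode SOCS family proteins that bind the activated receptor complex and dampen it, and both are transcribed in response to STAT5. STAT5 binds the palindrome TTCNNNGAA, so the 300 bases from 250 before to 50 after each start in the RefSeq promoter table (GRCm38.p6) were searched for it. The pattern reads the same on both strands. It was present in 8.30% of 32851 promoters. Of the members, 9 had 14 promoters in the table, and Cish and Igfals held the pattern, Cish in its listed promoter and Igfals in 2 of 3. The Cish promoter held 2 matches, at positions 1 and 12 from the start site, as did 0.457% of promoters with 2 or more. The sequences are shown because Cish varied most of all members in liver, and because Igfals is the other member with a match. The capitals mark the matches in the 250 bases before and 30 after the start. The Cish stretch is chr9:107296409-107296688 and that of the second listed start of Igfals, with a match at position -58, is chr17:24877981-24878260, both on the plus strand.
Cish: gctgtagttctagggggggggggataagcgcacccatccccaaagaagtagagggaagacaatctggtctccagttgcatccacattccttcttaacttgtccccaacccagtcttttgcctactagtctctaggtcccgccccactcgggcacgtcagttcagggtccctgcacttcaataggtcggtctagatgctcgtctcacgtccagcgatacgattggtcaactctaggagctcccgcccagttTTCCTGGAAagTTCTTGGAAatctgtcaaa
Igfals: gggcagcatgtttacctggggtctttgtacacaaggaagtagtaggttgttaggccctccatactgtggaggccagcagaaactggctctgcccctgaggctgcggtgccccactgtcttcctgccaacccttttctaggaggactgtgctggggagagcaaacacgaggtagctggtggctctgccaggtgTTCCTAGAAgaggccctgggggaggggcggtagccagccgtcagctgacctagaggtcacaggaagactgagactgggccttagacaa
Matches to the letters are a description and were not tested for binding.

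Cish was the most variable member in liver. Its libraries held 14.4, 7.34, 6.83 and 15.6 CPM at 8 weeks, 2.54, 19.1, 0.619 and 35.8 CPM at 10 weeks, and 32.1, 42.6, 5.22 and 16.8 CPM at 12 weeks. The lowest and the highest of the 12 differed 68.8-fold, and the libraries of 10 weeks alone ran from 0.619 to 35.8 CPM. The lowest value rests on 12 read pairs and the highest on 887. In kidney the same gene held 11.2, 7.39, 10.1 and 14.2 CPM at 8 weeks, 5.02, 15.5, 3.59 and 24.1 CPM at 10 weeks, and 21.0, 36.3, 6.89 and 17.4 CPM at 12 weeks. The kidney range was narrower, at 10.1-fold, and again widest at 10 and 12 weeks. Heart libraries held 20.4 to 43.3 CPM, a 2.12-fold range.

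Socs2 in liver behaved differently from Cish, since most of its spread at 8 and 10 weeks lay in single low libraries. Liver libraries held 23.1, 23.6, 5.79 and 25.8 CPM at 8 weeks, 30.4, 33.1, 2.17 and 32.9 CPM at 10 weeks, and 29.0, 49.5, 31.4 and 35.2 CPM at 12 weeks. Replicate 3 was far below the others at both 8 and 10 weeks, and all 12-week libraries were above all 8-week ones. Kidney libraries held 10.3, 5.96, 6.53 and 8.83 CPM at 8 weeks, 9.34, 7.42, 2.13 and 8.00 CPM at 10 weeks, and 6.37, 16.7, 6.13 and 12.9 CPM at 12 weeks. Heart held the most, with 39.7 to 66.5 CPM in its 12 libraries. Heart exceeded kidney 5.82-fold (adjusted p = 8.23e-11) and liver 1.84-fold (adjusted p = 0.00166), the latter short of 2-fold. Cish was likewise higher in heart, 2.24-fold against kidney (adjusted p = 0.00309, or 0.0850 with total counts alone) and 1.97-fold against liver (adjusted p = 0.0129), while liver and kidney differed by 0.19 ± 0.36 on the log2 scale (SE, adjusted p = 0.637).

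The spread of these feedback genes was set beside that of all genes tested in the tissue. The residual SD within ages, on the log2 CPM scale, was 1.74 for Cish and 1.27 for Socs2 in liver, where the median gene had 0.250, and 0.150% and 0.818% of 14672 genes had a larger one. In kidney the SD was 0.968 for Cish and 0.727 for Socs2, with a median of 0.167 over 17649 genes, of which 0.448% and 1.54% exceeded them. In heart Socs2 had 0.176, close to the median of 0.180. Cish was above that median there, at 0.259, which 32.4% of 15137 genes exceeded. Of genes within 2-fold of its heart level, 4.81% exceeded it. Ghr and Igf1, by contrast, had an SD of 0.165 and 0.182 in liver, below its median gene. Among liver genes within 2-fold of their levels, 53% and 47.0% had a larger SD, so both were typical of genes that abundant.

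Cish levels in liver and kidney followed each other across libraries with the same age and replicate number. The labels give these libraries a shared number, but do not state that they came from the same animal. Over the 12 numbers, log2 Cish correlated between the organs with Pearson's r = 0.958 and Spearman's rho = 0.986, and with r = 0.959 after the age means were removed. The rank in liver and in kidney was identical for 8 of the 12 numbers and differed by at most 1 for the others. Replicate 3 of 10 weeks was the lowest and replicate 2 of 12 weeks the highest in both organs. Without the 2 libraries farthest from the median, r was 0.958, and leaving out each number in turn gave 0.951 to 0.967. Of 13660 genes tested in both organs the median r was 0.166, and only Zfp933, at 0.991, had a higher r than Cish, with the clock gene Per1 next at 0.951.

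**Figure D2:**
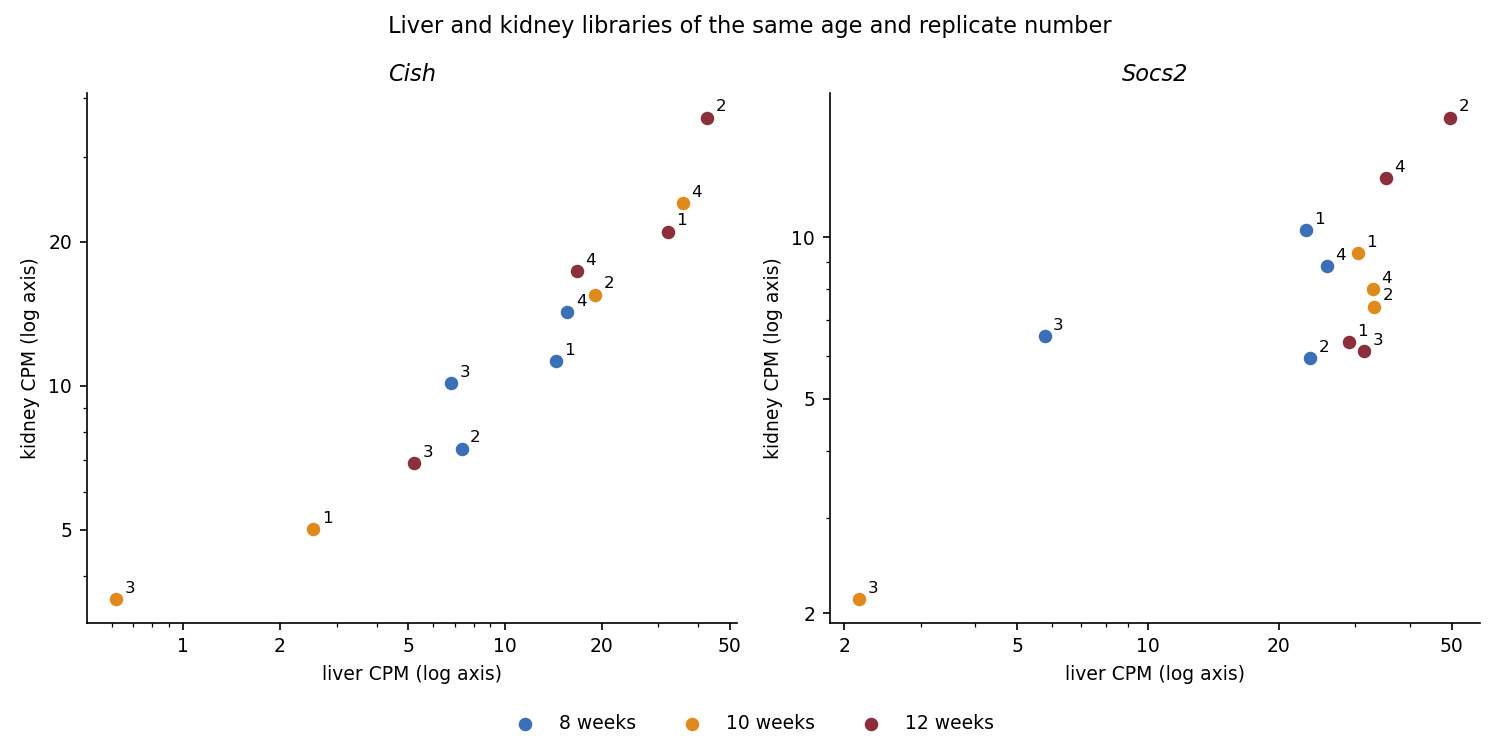
Kidney CPM against liver CPM, both on log axes, for Cish and Socs2, as 1 point per pair of libraries with the same age and replicate number, labelled with that number and coloured by age. The 12 Cish points lie along a line from replicate 3 of 10 weeks at the lower left to replicate 2 of 12 weeks at the upper right (r = 0.958), whereas the Socs2 points owe their spread in liver mainly to replicate 3 of 8 and of 10 weeks.

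Socs2 gave r = 0.806 and rho = 0.566 between liver and kidney, but r fell to 0.608 without the 2 farthest libraries and ranged from 0.470 to 0.866 when single numbers were left out. The value of 0.470 came without replicate 3 of 10 weeks, the lowest library of both organs, and the other 11 lay between 0.794 and 0.866. Heart did not share the pattern, with r = -0.507 for Cish against liver and -0.528 against kidney, and -0.187 and -0.061 for Socs2. Without the 2 farthest libraries these Cish values were -0.029 and -0.125. Igf1r was the other member with a high value, at r = 0.775 between kidney and heart (0.639 without the 2 farthest). These correlations share the libraries' numbering and are given as descriptions.

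Among 64 further genes of the pathway, Bcl6 was singled out after its values were seen. It encodes a transcriptional repressor that binds sites shared with STAT5 and whose liver transcript is known to be lowered by growth hormone. Liver libraries held 8.03, 54.7, 24.7 and 5.01 CPM at 8 weeks, 72.3, 9.97, 79.7 and 10.0 CPM at 10 weeks, and 34.1, 19.01, 71.6 and 4.70 CPM at 12 weeks. Kidney libraries held 4.52 to 27.6 CPM. In liver the 3 libraries with the lowest Cish had the 3 highest Bcl6 levels. Log2 Bcl6 correlated with log2 Cish at r = -0.658 in liver (rho = -0.608, -0.436 without the 2 farthest libraries) and at r = -0.849 in kidney (rho = -0.846, -0.848 without the 2 farthest). It was the lowest value of 53 pathway genes compared in liver and of 54 in kidney. Over all genes, 0.348% in liver and 0.0453% in kidney had an r as low or lower. Bcl6 itself correlated between liver and kidney at r = 0.847 (rho = 0.741). Its 2 promoters in the RefSeq table held 1 and 3 matches to TTCNNNGAA.

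**Figure D3:**
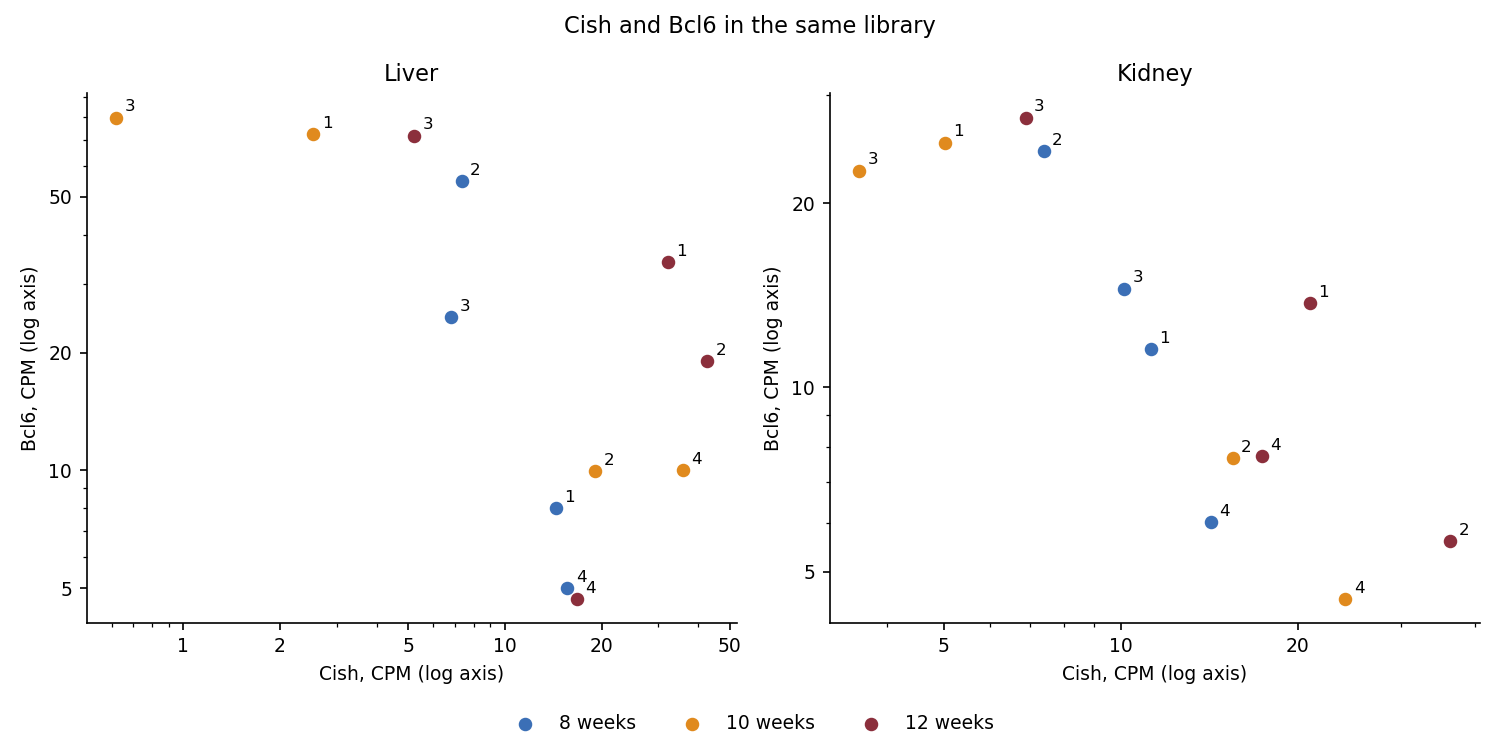
Bcl6 CPM against Cish CPM, both on log axes, in the same library of liver and of kidney, as 1 point per library labelled with its replicate number and coloured by age. In both organs the libraries with the lowest Cish, replicates 1 and 3 of 10 weeks and 3 of 12 weeks, are among the highest in Bcl6 (r = -0.658 in liver and -0.849 in kidney).

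Igf1 (ENSMUSG00000020053, chr10:87693642-87772904, plus strand), the hormone of the axis, was mainly a liver transcript. Liver libraries held 853, 818, 781 and 856 CPM at 8 weeks, 740, 689, 691 and 776 CPM at 10 weeks, and 601, 810, 789 and 994 CPM at 12 weeks. All 10-week libraries were below all 8-week ones, and the 12-week libraries spanned both. The 8-week mean of 827 ± 35.0 CPM (SD, n = 4) and the 10-week mean of 724 ± 41.6 CPM (SD, n = 4) differed by -0.20 ± 0.12 on the log2 scale (SE, adjusted p = 0.490). Liver exceeded kidney 102-fold (adjusted p = 5.78e-33) and heart 50.8-fold (adjusted p = 8.40e-32). Heart, at 10.4 to 23.5 CPM, exceeded kidney, at 6.38 to 10.4 CPM, by 2.01-fold (adjusted p = 1.02e-11). Igf1 and Stat5b varied in opposite directions over the 12 liver libraries (r = -0.753, rho = -0.860, -0.705 without the 2 farthest). Pairs of members were correlated in each tissue. Those named here and below were picked from them, and none was tested.

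Igfals (ENSMUSG00000046070, chr17:25084971-25100984, plus strand), which encodes the acid-labile subunit, followed Igf1 in being highest in liver, and less closely among the liver libraries (r = 0.382). It held 183, 112.8, 95.1 and 117 CPM in liver at 8 weeks, 152, 95.2, 120 and 159 CPM at 10 weeks, and 130, 159, 158 and 163 CPM at 12 weeks. The ages overlapped throughout. Liver exceeded kidney 21.3-fold (adjusted p = 2.21e-25) and heart 29.8-fold (adjusted p = 2.47e-26), while kidney and heart differed by 1.40-fold (adjusted p = 0.00158). Igfbp3 (ENSMUSG00000020427, chr11:7156086-7164179, minus strand), the other partner of the circulating complex, was highest in kidney. Kidney libraries held 49.95 to 115 CPM, liver 10.9 to 43.8 CPM and heart 16.0 to 37.8 CPM. Kidney exceeded liver 3.00-fold (adjusted p = 1.83e-12) and heart 3.35-fold (adjusted p = 1.49e-13), and liver and heart differed by 0.16 ± 0.14 on the log2 scale (SE, adjusted p = 0.293).

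Igfbp1 (ENSMUSG00000020429, chr11:7147651-7152546, plus strand), a binding protein that rises in fasting and that insulin represses, varied widely in liver. Its libraries held 208, 222, 485 and 435 CPM at 8 weeks, 313, 325, 177 and 74.8 CPM at 10 weeks, and 437, 41.6, 112 and 73.5 CPM at 12 weeks. A single 12-week library was as high as the 8-week libraries, and the other 3 were below them. The residual SD within ages was 1.08 on the log2 scale, and 1.56% of genes in liver exceeded it. Summed CPM of the list of 11 fasting and glucocorticoid response genes ranged from 8547 to 14707 in liver at 8 weeks, 6941 to 10064 at 10 weeks and 5930 to 11065 at 12 weeks, and its part in the Igfbp1 levels was not tested.

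Igfbp2 (ENSMUSG00000039323, chr1:72863606-72891634, plus strand) had the highest level per transcript length of the 10 members in liver. It held 740, 346, 375 and 413 CPM at 8 weeks, 630, 250, 629 and 599 CPM at 10 weeks, and 678, 627, 1051 and 780 CPM at 12 weeks. At 12 weeks the lowest library was above all but 1 of the 8-week libraries. The log2 difference between 12 and 8 weeks was 0.73 ± 0.30 (SE, adjusted p = 0.284). Igfals and Igfbp2 varied together over the liver libraries (r = 0.836, rho = 0.748, 0.709 without the 2 farthest), and Igfals and Igfbp1 in opposite directions (r = -0.645, rho = -0.741, -0.539 without the 2 farthest). Liver exceeded kidney 261-fold for Igfbp2 (adjusted p = 2.50e-28) and 22.2-fold for Igfbp1 (adjusted p = 3.58e-15).

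In heart these 2 binding proteins were close to absent. All 12 heart libraries together held 6 read pairs of Igfbp1 and 13 of Igfbp2, with at most 2 and 4 in any library. Pooled over libraries, liver exceeded heart 11315-fold for Igfbp1 (95% Poisson interval 5198 to 30832) and 13152-fold for Igfbp2 (7691 to 24700), intervals that cover counting error only. Hepatocyte markers in heart summed to 0.124 to 0.577 CPM at 8 weeks, 1.40 to 26.3 CPM at 10 weeks and 0.757 to 4.05 CPM at 12 weeks, and their part in these few pairs was not tested.

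Igf1r (ENSMUSG00000005533, chr7:67601518-67883416, plus strand), which encodes the receptor for IGF-1, was lowest where its ligand transcript was highest. Kidney libraries held 192 to 293 CPM and heart libraries 23.4 to 37.7 CPM. Liver libraries held 4.11, 4.41, 3.66 and 3.97 CPM at 8 weeks, 3.89, 5.50, 2.79 and 4.77 CPM at 10 weeks, and 2.34, 3.12, 3.20 and 2.47 CPM at 12 weeks. Kidney exceeded liver 67.9-fold (adjusted p = 2.17e-34) and heart 8.16-fold (adjusted p = 3.38e-28), and heart exceeded liver 8.31-fold (adjusted p = 7.12e-27). All 12-week liver libraries were below all 8-week ones, while the 10-week libraries overlapped both. Liver values rest on 51 to 144 read pairs per library.

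Levels of different genes were compared per kilobase of the canonical transcript. Among the members, Igfbp2 led in liver with 449 CPM per kilobase, ahead of Ghr with 179, Igfbp1 with 146 and Igf1 with 111, and Igf1r came last with 0.296. In kidney Ghr led with 170 CPM per kilobase, followed by Igfbp3 with 32.2 and Igf1r with 19.9. In heart the order was Ghr with 44.8 CPM per kilobase, Socs2 with 18.9 and Stat5b with 13.9. Cish had 8.62 there, but the unstranded column left out 59.7% of the pairs that the strand columns assign to it. Its place in this order is therefore uncertain. No growth hormone transcript was counted, as Gh was at 0 in all 36 libraries, and Igf2 reached at most 0.119 CPM in liver, 0.0550 CPM in kidney and 0.866 CPM in heart.

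The study compared the ages to find what changes as mice pass from late adolescence to adulthood, and no member passed the test between ages. With edgeR's quasi-likelihood test and Benjamini-Hochberg adjustment over all genes of a tissue, 0 members were called in any of 9 comparisons. In liver the comparisons of 12 against 8, 10 against 8 and 12 against 10 weeks called 0.239%, 0.0204% and 0.0545% of 14672 genes. In kidney they called 0.0567%, 0.929% and 0.482% of 17649 genes, and in heart, where Igfbp1 and Igfbp2 fell under the count filter and 8 members were tested, 4.56%, 1.06% and 0.0396% of 15137 genes. At each of these shares, 10 genes hold fewer than 1 call on average.

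At an unadjusted p under 0.05 the members numbered 3, 1 and 1 in liver, 1, 5 and 1 in kidney, and 1, 2 and 4 in heart, in the same order of comparisons. Of all genes, 15.1%, 14.3% and 14.1% did so in liver, 11.7%, 16.5% and 16.4% in kidney, and 23.4%, 15.8% and 11.7% in heart. limma-voom called 0 members in all 9 comparisons and DESeq2 in 8 of them, and in kidney at 10 against 8 weeks DESeq2 called 2, Stat5b (adjusted p = 0.0246) and Igfbp2 (adjusted p = 0.0199), where it called 3.76% of all genes. Without a count filter edgeR called 15 member differences in kidney and heart, where it called 1.22%, 2.39% and 2.23% of genes in kidney and 3.09%, 2.18% and 0.840% in heart, and 0 in liver, where it called 0.788% to 1.02%. Without replicate 2 of 10 weeks Stat5b in kidney at 10 against 8 weeks was called (adjusted p = 0.0351), and without replicate 4 of 12 weeks Cish in heart at 12 against 8 weeks (adjusted p = 0.0416).

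The groups of libraries were also compared by whether they overlapped. In liver they did not overlap for 3 members at 12 against 8 weeks (Ghr and Socs2 higher, Igf1r lower), 2 at 10 against 8 weeks (Stat5b higher, Igf1 lower) and 0 at 12 against 10 weeks, where 7.94%, 9.47% and 8.1% of all genes did not overlap. In kidney the members were 0, 1 (Stat5b lower at 10 against 8 weeks) and 1 (Igfbp3 higher at 12 against 10 weeks), where 6.48%, 8.99% and 9.12% of genes did not overlap. In heart they were 0, 2 (Ghr higher and Igfbp3 lower at 10 against 8 weeks) and 1 (Igfbp3 higher at 12 against 10 weeks), where 12.7%, 9.74% and 6.09% did not overlap.

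**Figure D4:**
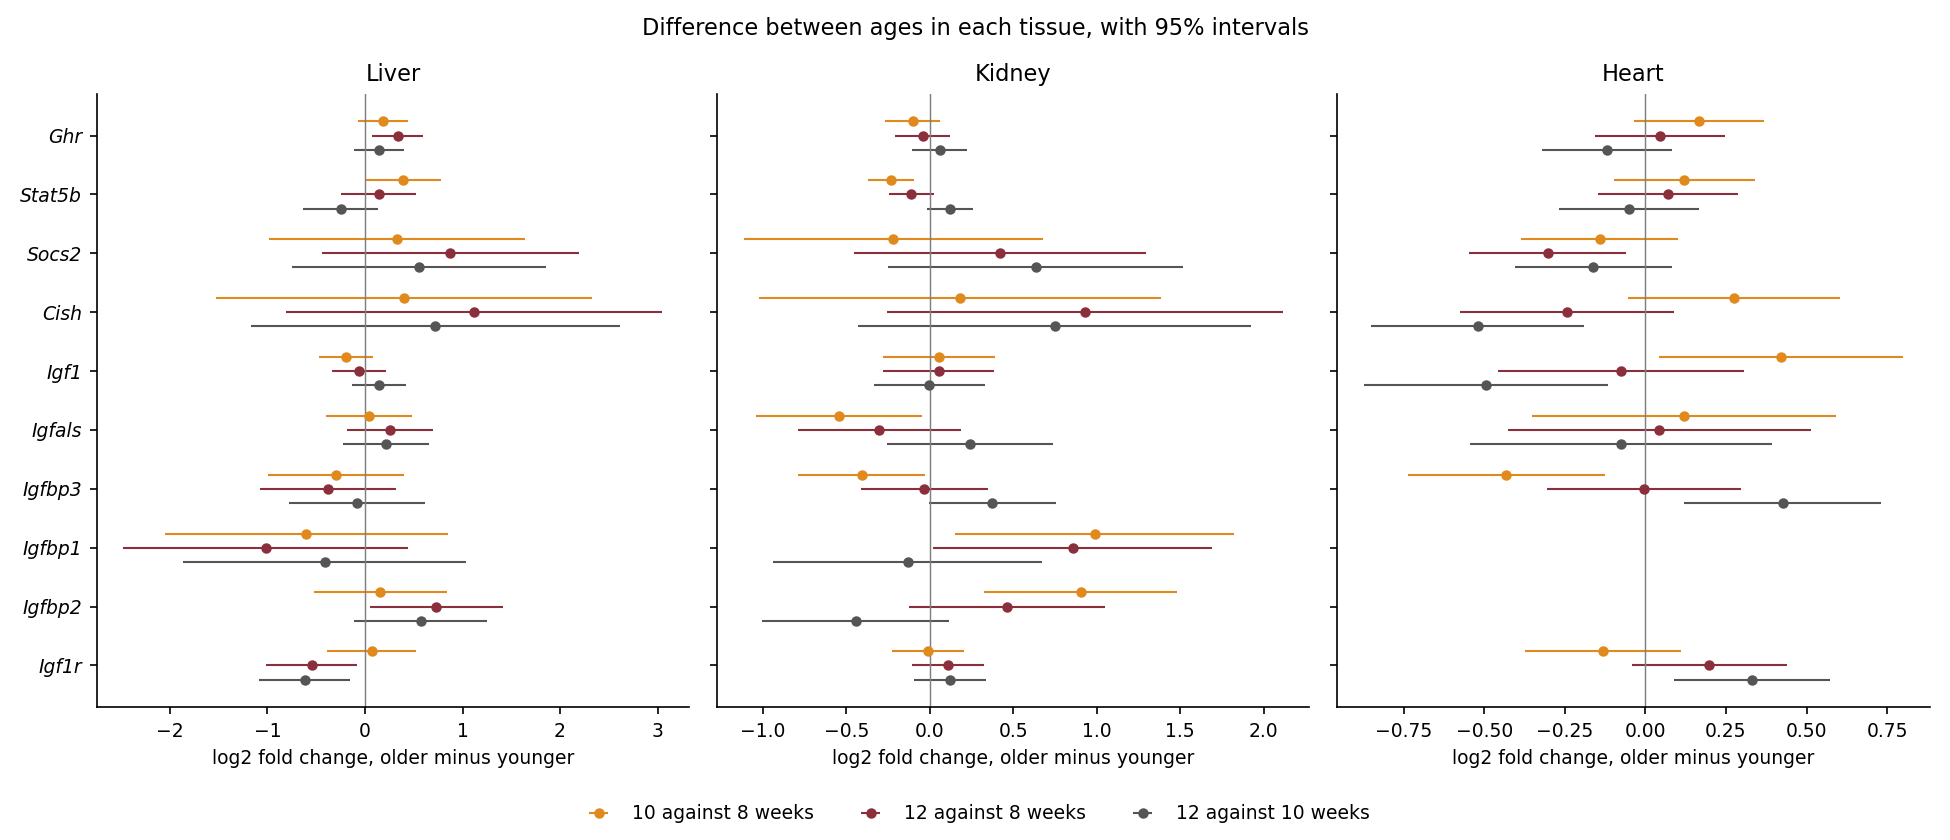
Log2 fold change between ages for each member in liver, kidney and heart, older minus younger, with points for edgeR's estimate and bars for the 95% interval (9 residual degrees of freedom). These intervals are wider than edgeR's test implies. Igfbp3 in kidney at 12 against 10 weeks had an unadjusted p of 0.0434 in that test and an interval of -0.0067 to 0.76. The horizontal scales differ between tissues, and the bars of Cish, Socs2 and Igfbp1 in liver are the widest. Igfbp1 and Igfbp2 have no points in heart, where they were not tested.

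The closest to the threshold was Stat5b in kidney, which held 35.8, 40.0, 37.4 and 38.2 CPM at 8 weeks and 28.9, 34.9, 32.8 and 30.3 CPM at 10 weeks. All libraries of 10 weeks were below those of 8 weeks, and the log2 difference was -0.23 ± 0.06 (SE, adjusted p = 0.0802). Kidney Igfbp2 differed by 0.91 ± 0.25 in the other direction over the same ages (adjusted p = 0.0998), at 1.25, 2.47, 1.04 and 1.75 CPM against 3.83, 2.25, 3.07 and 2.86 CPM. In heart, Socs2 at 12 against 8 weeks differed by -0.30 ± 0.11 (SE, adjusted p = 0.104) and Igfbp3 at 10 against 8 weeks by -0.43 ± 0.14 (SE, adjusted p = 0.133).

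The intervals show what these libraries could and could not resolve. For Igf1 in liver at 12 against 8 weeks the 95% interval of the log2 difference ran from -0.34 to 0.22, and for Igf1r in kidney from -0.11 to 0.33. For Cish in liver it ran from -0.81 to 3.05 and for Igfbp1 from -2.48 to 0.45, so that differences of several fold could not have been told from the spread.

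The change over the 3 ages differed between tissues for 1 member. In a test of the tissue-by-age interaction with 2 degrees of freedom, Igf1r differed between liver and heart (adjusted p = 0.0138), where 4.4% of 19716 genes did. The liver change exceeded the heart change by 0.21 at 10 against 8 weeks and was 0.75 lower at 12 against 8 weeks, both on the log2 scale. Heart libraries of Igf1r held 29.3, 30.7, 29.9 and 29.3 CPM at 8 weeks, 23.4, 34.6, 26.1 and 24.9 CPM at 10 weeks, and 29.6, 34.0, 37.7 and 35.9 CPM at 12 weeks. In heart 3 of 4 libraries of 12 weeks were above all those of 8 weeks, and in liver all 4 were below. With limma-voom the adjusted p was 0.113, and leaving out each of the 36 libraries gave 0.00355 to 0.0322.

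Between liver and kidney 0 members passed the interaction test, where 0.806% of genes did, and between kidney and heart 0, where 0.157% did. The lowest adjusted p in the former was 0.0906, again for Igf1r. At an unadjusted p under 0.05 there were 5 members between liver and kidney, 2 between liver and heart and 0 between kidney and heart, where 13.3%, 20.3% and 10.0% of all genes were. limma-voom called 0 members in all 3. With the replicate block of the shared library numbers, Igf1r also passed between liver and kidney (adjusted p = 0.0150). Without single libraries Igf1r passed there without kidney 10-week replicate 2 (adjusted p = 0.0436) or liver 10-week replicate 3 (0.0242), and Stat5b and Igfbp1 passed without liver 12-week replicate 1. Between liver and heart, Igf1 passed as well without heart 10-week replicate 2.

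Some lists of cell type markers in liver had lower medians at 12 than at 8 weeks, as Igf1r did. The 6 endothelial genes summed to 121 to 217 CPM at 8 weeks, 199 to 218 CPM at 10 weeks and 92.4 to 132 CPM at 12 weeks, 5 of them had an unadjusted p under 0.05 at 12 against 8 weeks, and 0 of the 6 were called. The 9 fibroblast and stellate genes summed to 263 to 468 CPM, 306 to 392 CPM and 203 to 328 CPM, and 5 of them had an unadjusted p under 0.05 at 12 against 8 weeks, with 0 called. Of all genes in liver, 15.1% had an unadjusted p under 0.05 there. The median log2 difference between these ages was -0.68 for the endothelial and -0.53 for the fibroblast and stellate genes, beside -0.55 for Igf1r. It was -0.34 for macrophage, 0.15 for hepatocyte and 0.20 for red cell markers. At 10 against 8 weeks it was 0.31 for endothelial, -0.09 for fibroblast and stellate and 0.67 for macrophage markers, beside 0.07 for Igf1r. The part of these cell types in the Igf1r levels was not tested.

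Among further genes of the pathway, calls between ages were made in heart. Of 64 listed genes, 55 were tested in liver and 60 in kidney with 0 calls in all 3 comparisons, and 57 were tested in heart. At an unadjusted p under 0.05 there were 5, 9 and 6 in liver, 12, 9 and 12 in kidney and 19, 13 and 11 in heart, to be read against the shares of all genes given above for the members. In heart at 12 against 8 weeks 1 gene was called higher and 2 lower, close to the 4.56% of all genes called there. At 10 against 8 weeks 3 were higher and 1 was lower, where 1.06% of all genes were called, and at 12 against 10 weeks 0 were called. The difference between tissues in the change with age was not tested for these genes.

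Prlr, which encodes the prolactin receptor, a relative of Ghr that also signals through STAT5, held 3.11, 5.76, 5.58 and 4.54 CPM in heart at 8 weeks, 8.44, 7.06, 11.3 and 7.92 CPM at 10 weeks, and 11.3, 9.87, 10.4 and 6.48 CPM at 12 weeks. Every older library was above every 8-week one, with log2 differences of 0.87 ± 0.20 at 10 weeks (SE, adjusted p = 0.0470) and 0.99 ± 0.20 at 12 weeks (SE, adjusted p = 0.0150). The call at 12 weeks was lost without replicate 3 of 12 weeks (adjusted p = 0.0531), and that at 10 weeks without any of 9 libraries (up to 0.165). Irs2, an adaptor of the insulin and IGF-1 receptors, fell from 23.6, 21.9, 31.0 and 18.3 CPM to 13.1, 16.96, 13.2 and 13.9 CPM at 10 weeks and 11.3, 12.5, 11.9 and 11.1 CPM at 12 weeks. The ages did not overlap, and its log2 difference between 12 and 8 weeks was -1.02 ± 0.13 (SE, adjusted p = 0.00148, at most 0.00583 without any library). Its call at 10 weeks (adjusted p = 0.0151) was lost without replicate 1, 3 or 4 of 10 weeks (up to 0.0650).

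Pik3r2, a regulatory subunit of phosphoinositide 3-kinase, fell in heart between 8 and 12 weeks by 0.43 ± 0.08 on the log2 scale (SE, adjusted p = 0.00716). Igfbp4 and Igfbp5, which encode further IGF binding proteins, rose in heart between 8 and 10 weeks by 0.40 ± 0.09 (SE, adjusted p = 0.0398) and 0.67 ± 0.15 (SE, adjusted p = 0.0413). Leaving out single libraries ended the Igfbp4 call for 6 of the 12 (adjusted p up to 0.134) and the Igfbp5 call for 7 (up to 0.128), among them each of replicates 1, 3 and 4 of 10 weeks and 2, 3 and 4 of 8 weeks. Both were higher in kidney than in heart, with means over 12 libraries of 909 and 588 CPM against 88.3 and 105 CPM. Liver held the most Igfbp4 and the least Igfbp5 of the 3 tissues, with means of 2754 and 12.7 CPM. In heart at 12 weeks Igfbp4 was at 82.6 ± 3.76 CPM (SD, n = 4), near its 8-week level of 78.6 ± 5.32 CPM (SD, n = 4), and Igfbp5 at 104 ± 22.1 CPM (SD, n = 4). Fibroblast and stellate markers in heart summed to 844 to 894 CPM at 8 weeks and 963 to 1222 CPM at 10 weeks, 3 of these 9 genes were called higher at 10 weeks, and their part in the Igfbp4 and Igfbp5 levels was not tested.

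For each member the liver genes with the most similar pattern were sought over the 12 liver libraries, among 9565 genes with a mean of at least 5 CPM. Myc, a transcription factor of cell growth, came nearest to Cish (r = 0.899), followed by Alas1 (0.810) and Wdr82 (0.806). Trp53inp1 was nearest to Igfbp1 (0.941), followed by Mrtfa (0.855) and Eif2ak3 (0.817). Igfbp3 followed Fbln5 (0.949), which encodes the extracellular matrix protein fibulin-5, Endov (0.932) and Podn (0.884). Socs2 had weaker matches in Zfp1 (0.866), Ppfibp2 (0.850) and Pgap1 (0.801). The nearest to the other members were Slc22a28 for Ghr (0.931), Cotl1 for Stat5b (0.932), Sepsecs for Igf1 (0.950), mt-Nd4 for Igfals (0.905), Aldh9a1 for Igfbp2 (0.924) and Msrb3 for Igf1r (0.896). The libraries share tissue, depth and composition, and no test was run on these values.

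Counting affected some members more than others. Of the pairs that the strand columns assign to Cish, 56.0% in liver, 50.4% in kidney and 59.7% in heart were left out of the unstranded column, where exons of other genes overlap on the opposite strand. For Igfbp3 the share was 20.6% to 23.3% and for Igfals 1.71% to 11.8%, and for each other member at most 2.62%. With both strand columns summed, the correlation of Cish between liver and kidney was 0.973 and no member was called between ages.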

How the data were processed

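Polyadenylated RNA of 36 libraries was sequenced as read pairs by the study's authors, whose processing notes name FastQC 0.11.9, cutadapt 4.2 and STAR 2.7.11b, with GRCm39 and Ensembl annotation. The deposited values are raw read pair counts per gene, and the unstranded count column was used. Libraries were unstranded, so pairs on exons that overlap a gene on the other strand were not counted. From 68.6% to 78.8% of pairs were counted. The 10 genes and all gene lists were chosen with earlier results of these data known. Gene names and positions came from GENCODE on GRCm39 (78168 of 78239 genes) and promoters from RefSeq on GRCm38.p6.

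Ages were compared within a tissue with edgeR 4.0.16 (quasi-likelihood F-test, TMM, R 4.3.3) over genes with a count above 0 in at least 2 libraries and a mean count of at least 10 in any age, after the study's filter. Tissues and the tissue-by-age interaction were compared in a fit of all 9 groups. P-values were adjusted by Benjamini-Hochberg over all genes tested, with 0.05 as threshold and, between tissues, a log2 difference above 1. The scripts were tested on simulated data. Correlations used log2 CPM with a prior count of 2. Genes named were the 10 members in full, the 3 liver genes most like each, and pathway genes past the threshold. Bcl6 and the genes nearest Cish between organs were singled out after their values were seen. Alternatives were limma 3.58.1 (voom), DESeq2 1.42.0, other scaling and count filters, a replicate block and leaving out each library.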

Additional observations from a re-analysis of the deposited data

Results flagged for a closer look

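In 84 groups of 4 libraries, 10 held a library that stood far from the other 3 by Dixon's criterion at its 95% limit, where chance gives about 1 in 20. For Socs2 in liver these were replicate 3 of 8 weeks at 5.79 CPM, with the others at 23.1 to 25.8 CPM, and replicate 3 of 10 weeks at 2.17 CPM, with the others at 30.4 to 33.1 CPM. For Igfbp2 in liver they were replicate 1 of 8 weeks at 740 CPM, with the others at 346 to 413 CPM, and replicate 2 of 10 weeks at 249.8 CPM, with the others at 599 to 629.7 CPM. Igfals in liver was at 130.2 CPM in replicate 1 of 12 weeks and at 158 to 163 CPM in the others.

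In kidney, replicate 1 of 8 weeks was high for Igf1, at 10.4 CPM against 6.38 to 6.89 CPM, and for Igfbp1, at 12.4 CPM against 4.42 to 5.78 CPM. Replicate 4 of 12 weeks was high for Igfals in kidney, at 9.14 CPM against 5.21 to 5.59 CPM, and replicate 3 of 10 weeks was low for Igfbp3, at 49.95 CPM against 76.9 to 79.4 CPM. In heart, replicate 1 of 8 weeks was high for Igfbp3, at 37.8 CPM against 24.5 to 26.0 CPM. The change of Igf1r over the 3 ages differed between liver and heart in edgeR's interaction test (adjusted p = 0.0138).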

How the results depend on the processing

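Of the members' log2 differences between ages, 1745 values under the alternatives stayed on the same side of the threshold and 19 passed it anew. Between tissues 1257 stayed on the same side. Directions were compared only where the main or the alternative fit passed the threshold. With total counts in place of TMM (chosen after seeing the data), Ghr between liver and kidney reversed to -0.72 (adjusted p = 2.82e-13). On that scale Stat5b between liver and heart reversed to -0.25 (adjusted p = 0.00338), and Cish between kidney and heart (-0.64) had an adjusted p of 0.0850. DESeq2 called 2 members in kidney at 10 against 8 weeks. Without a count filter, at 12 against 8, 10 against 8 and 12 against 10 weeks, 2, 4 and 3 members were called in kidney and 1, 2 and 3 in heart, and 5, 4 and 1 in the interactions of liver with kidney, liver with heart and kidney with heart, with the cause not tested. limma-voom called 0 members in the liver and heart interaction. Leaving out single libraries gave 0 to 1 called members in kidney at 10 against 8 weeks and in heart at 12 against 8 weeks, 1 to 2 in the liver and heart interaction and 0 to 2 in the liver and kidney interaction.

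Counts over all genes depended more on the tool. At 12 against 8, 10 against 8 and 12 against 10 weeks, edgeR called 35, 3 and 8 genes in liver (23 to 423, 3 to 356 and 4 to 486 under other settings), 10, 164 and 85 in kidney (4 to 513, 117 to 1005 and 24 to 938), and 691, 161 and 6 in heart (461 to 1245, 107 to 798 and 5 to 308). The interactions called 159, 867 and 31 genes (129 to 985, 559 to 1311 and 28 to 334).

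Same-numbered libraries of different ages did not deviate together (median correlations of 0.01, 0.00 and 0.00 in liver, kidney and heart). Between liver and kidney 12 of 12 libraries correlated best with their own number, at 0.03 to 0.16, with 3 of 12 above 0.1. Between kidney and heart 10 of 12 correlated best with their own number, and between liver and heart 7 of 12. Whether same-numbered libraries came from the same animal cannot be told from the labels. The main tests of tissues and of the interaction took them as independent, so any pairing by animal is not in their p-values. In the interaction tests, a block on the shared number called Igf1r between liver and kidney (adjusted p = 0.0150) and kept its call between liver and heart. Between ages the block was the replicate number within a tissue, which joins libraries of different ages, and 0 members were called. That block does not address pairing by animal across tissues. Cish in liver rests on as few as 12 read pairs and Igfbp1 and Igfbp2 in heart on at most 4 per library, which limits what can be said of those levels.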
